A study of Mus musculus with 24 samples.

Results

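The transcripts of 78 mitochondrial ribosomal protein genes were followed through liver, brain, heart and skeletal muscle of 6 male mice. The mitochondrial ribosome translates the few messages encoded by the mitochondrial genome, which specify core subunits of the respiratory chain and of the ATP synthase. Its ribosomal RNAs are transcribed inside the organelle, but its proteins are encoded in the nucleus, made on cytosolic ribosomes and imported, so that an organelle built for oxidative metabolism depends on many unlinked nuclear genes. Genes named Mrpl were assigned to the large subunit and genes named Mrps to the small subunit. The names are not exact, because Mrps18a and Mrps30 belong to the large subunit and Mrps36 is described as a component of the 2-oxoglutarate dehydrogenase complex of the citric acid cycle.

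The genes were chosen by symbol (Mrpl or Mrps, a number and at most 1 further letter) among the 21368 genes that the accessions of the array named, and all 78 such genes of the reference annotation had a probe. They were read by 100 probes, of which the probe with the highest mean over the 24 arrays was kept for each gene; 22 genes had more than 1 probe. The mice carried either wild-type (WT) Rap1 alleles or the Rap1 I312R change on both alleles (Rap1 KI/KI, here KI), introduced into the germ line with CRISPR/Cas9 and back-crossed 4 times to C57BL/6N. RAP1, the product of Terf2ip, is a shelterin protein held at telomeres by TRF2, and the substitution lies in its TRF2-binding region. The same 3 WT mice (WT1, WT2 and WT3) and 3 KI mice (KI1, KI2 and KI3) gave all 4 tissues. At an age of 5 months WT1 and KI1 were the oldest, and the rest were sampled at 2 months. RNA from each tissue of each mouse was labelled with Cy3 and hybridised to 1 array, with one RNA kit for brain and liver and another for heart and muscle. Brain against liver and muscle against heart were thus compared within a kit, while in the comparisons across these pairs tissue and kit cannot be told apart. The arrays lay on 3 slides. Slide 1 held all livers and the brains of WT1 and KI1. Slide 2 held the other brains and the hearts of WT1, WT2, KI1 and KI2. Slide 3 held the hearts of WT3 and KI3 and all muscles. Liver thus shared no slide with heart or muscle, and brain shared none with muscle.

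Levels are log2 signals, with the 75th percentile of each array set to 0. Levels were compared only within a probe. Between 56.5% and 72.7% of probes were well above background on an array. Of the 78 genes, 75 were above background on all 24 arrays, and Mrpl46 and Mrps33 were above it on the 23 arrays that gave them an accepted spot (muscle of KI3 and brain of WT1 gave none). The only probe of Mrpl21 was above background on 2 of 24 arrays, and this gene was left out of the tests, which leaves 77 genes. No array saturated any of the probes. Liver, brain, heart and muscle marker lists were highest in their own tissue on every array. Beyond these, the 7 of 8 neuronal and glial genes of the brain list that were measured in every muscle had a mean level of 3.0 in the muscle of KI3 against -0.74 to 0.18 in the other 5 muscles, and the adipocyte list (8 genes) had mean levels of 3.6 and 4.5 in the hearts of KI1 and KI3 against -1.3 to 1.4 in the other 4 hearts and 2.4 to 6.1 in the 6 muscles. The heart list had a mean of 6.7 in the heart of WT1, against 8.2 to 9.1 in the other hearts. In that heart Myl7 read -2.4 (5.0 to 8.3 in the other hearts) and Nppa 7.0 (8.8 to 9.7). The rest of the heart list in WT1 lay within the range of the other hearts. The liver list had a mean of -0.23 in the brain of WT1, against -3.2 to -2.2 in the other brains. A neutrophil list (7 genes) had a mean of 2.4 in the muscle of KI1, against -3.9 to -0.28 in the other muscles. Whether the Terf2ip probe covers the changed bases was not checked. Its level did not pass the test between genotypes in any tissue (limma, adjusted p from 0.663 to 1).

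The start windows of these genes are shown for 5 members on which the tissue or genotype values below turn, from 250 bases before to 50 bases after the annotated start (RefSeq, GRCm38.p6, printed 5′ to 3′ on the strand of the gene). Capitals mark matches on either strand to GCGCANGCG (a form of the nuclear respiratory factor NRF1 motif), CCGGAAG (ETS factors, among them GABPA) or AAGATGGCG (YY1), all factors studied for their part in nuclear genes of mitochondria.
Mrpl17 (chr7:105811038-105811337, minus strand): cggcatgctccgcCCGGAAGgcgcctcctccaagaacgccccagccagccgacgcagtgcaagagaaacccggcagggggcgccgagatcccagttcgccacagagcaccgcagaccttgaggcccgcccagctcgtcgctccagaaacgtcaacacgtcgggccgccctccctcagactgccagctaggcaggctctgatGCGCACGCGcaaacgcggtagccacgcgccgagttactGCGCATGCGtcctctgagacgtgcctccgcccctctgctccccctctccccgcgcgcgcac
Mrps26 (chr2:130563507-130563806, plus strand): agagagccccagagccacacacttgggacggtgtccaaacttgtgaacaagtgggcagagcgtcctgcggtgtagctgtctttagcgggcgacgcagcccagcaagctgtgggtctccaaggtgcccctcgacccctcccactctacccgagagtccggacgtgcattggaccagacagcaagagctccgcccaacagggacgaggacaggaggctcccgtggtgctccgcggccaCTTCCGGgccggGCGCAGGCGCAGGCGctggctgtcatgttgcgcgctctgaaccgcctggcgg
Mrps23 (chr11:88204138-88204437, plus strand): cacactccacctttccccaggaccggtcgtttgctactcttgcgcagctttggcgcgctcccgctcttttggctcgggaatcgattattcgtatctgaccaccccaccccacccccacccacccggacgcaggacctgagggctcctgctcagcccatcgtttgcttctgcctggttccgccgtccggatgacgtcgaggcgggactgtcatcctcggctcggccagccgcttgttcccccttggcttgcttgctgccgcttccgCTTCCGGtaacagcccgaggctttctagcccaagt
Mrpl42 (chr10:95501900-95502199, minus strand): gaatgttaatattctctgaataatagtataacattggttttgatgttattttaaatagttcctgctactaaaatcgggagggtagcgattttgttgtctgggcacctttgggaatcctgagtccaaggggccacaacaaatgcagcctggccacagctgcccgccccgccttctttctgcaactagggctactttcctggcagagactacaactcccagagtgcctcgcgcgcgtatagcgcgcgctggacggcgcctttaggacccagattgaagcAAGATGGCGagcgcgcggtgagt
Mrps18a (chr17:46110754-46111053, plus strand): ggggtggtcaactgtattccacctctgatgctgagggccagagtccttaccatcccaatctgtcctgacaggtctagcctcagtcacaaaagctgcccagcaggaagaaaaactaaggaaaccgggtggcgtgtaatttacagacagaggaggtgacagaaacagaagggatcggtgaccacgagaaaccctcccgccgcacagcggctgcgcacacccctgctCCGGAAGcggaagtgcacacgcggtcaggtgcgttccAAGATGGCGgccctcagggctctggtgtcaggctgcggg
A window was listed for 69 of the 78 genes. The ETS motif stood in the windows of 26 of these 69 genes (37.7%), against 9.93% of all 27025 genes with a window and 19.1% of the 10193 genes that had a probe above background on all 24 arrays. The NRF1 motif stood in 16 (23.2%, against 7.03% and 14.6%) and the YY1 motif in 8 (11.6%, against 1.64% and 3.4%). Any of the 3 motifs was found for 42 members (60.9%, against 16.5% and 32.3%); the motifs were searched independently and matches may overlap, as they do at the start of Mrps26. A match is a string of letters and was not shown to be bound. The members lay on 17 chromosomes, with 11 of them on chromosome 11.

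Among WT tissues the mitochondrial ribosomal protein transcripts were lowest in brain. Of the 77 genes tested, 76 had their lowest WT mean in brain and none had its highest there; 30 were highest in muscle, 26 in heart and 21 in liver. The median gene was 1.66 log2 units higher in heart than in brain, 1.66 higher in muscle than in brain; brain minus liver had a median of -1.46. Heart and muscle lay close to each other, with a median difference of -0.03 (muscle minus heart). The F test over the 4 WT tissues (limma, Benjamini-Hochberg adjustment over 40758 probes) called 77 of 77 genes at an adjusted p under 0.05, against 81.8% of all probes tested.

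**Figure D1:**
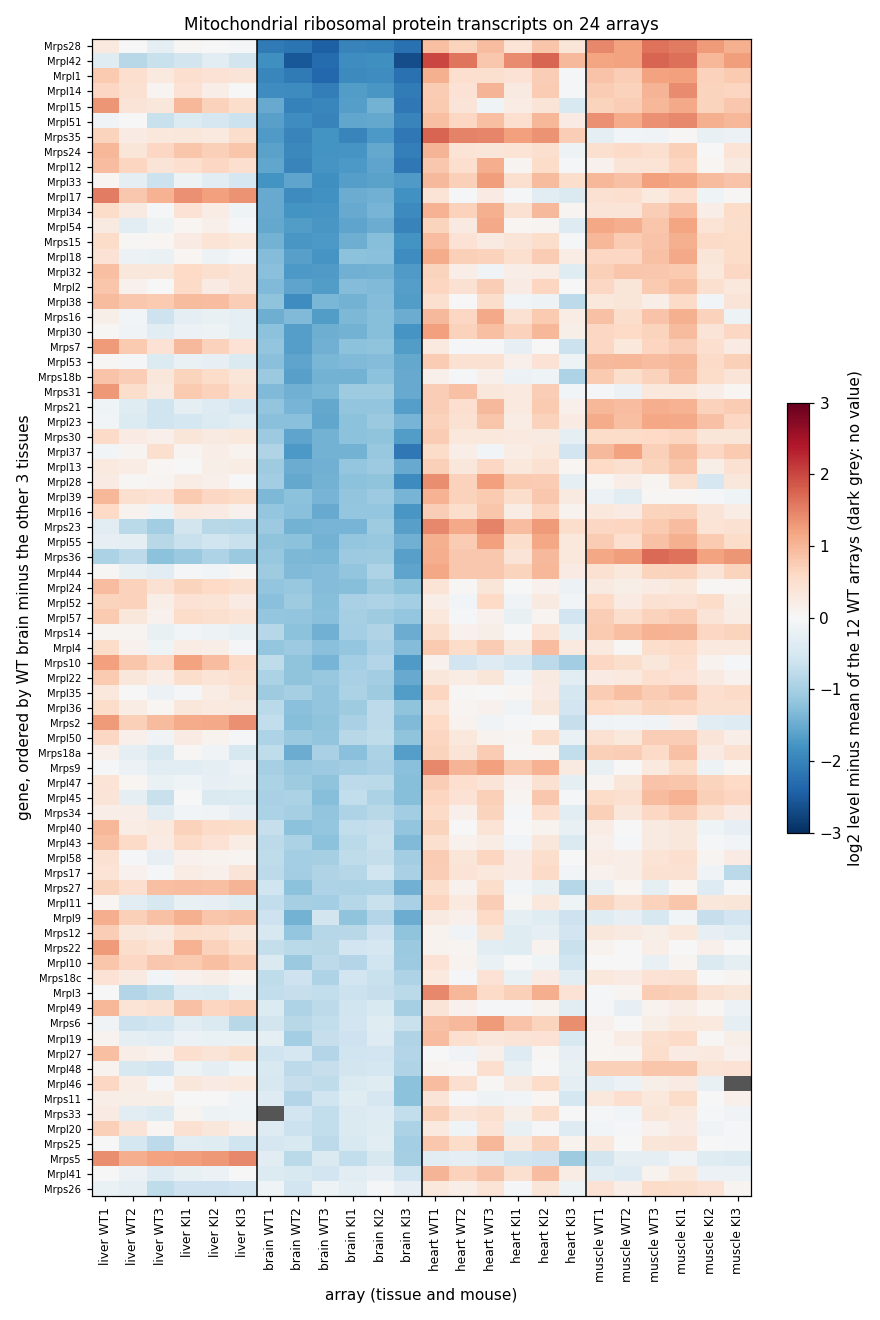
Level of each of the 77 genes (rows, ordered by the difference between WT brain and the other 3 tissues) on each of the 24 arrays (columns, 6 mice in each tissue), as the log2 level minus the gene's mean over the 12 WT arrays, from blue (lower) to red (higher); the dark grey cells have no accepted spot. The brain columns are blue in most rows and palest at Mrps26 in the last row, and Mrps5, near the bottom, is red only in the liver columns.

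In the pairwise tests, 76 of 77 genes were higher in WT heart than in brain (32.4% of all probes tested were called higher) and 0 were lower (23.6% of probes). For muscle against brain, 73 were higher (34.6% of probes) and 0 lower (24.4%). For brain against liver, 68 were lower (39.0%) and 0 higher (28.6%). The medians over all probes were 0.21, 0.28 and -0.33 for these 3 comparisons, smaller than those of the members. Liver lay below heart and muscle for more of the called genes than it lay above. In heart 29 genes were higher than in liver (24.6% of probes) and 7 lower (26.4%). In muscle 27 were higher than in liver (27.5%) and 10 lower (28.0%). After quantile normalization 44 were higher in heart than in liver (26.6%) and 4 lower (26.3%). For muscle against liver 35 were then higher (28.4%) and 6 lower (28.4%). With the slide fitted as a block instead, 15 were higher in heart than in liver (15% of probes) and 1 lower (21.3%). For muscle against liver the block left 6 higher (13.2%) and 0 lower (20.4%). As first scaled and without a block, only 1 gene was called higher in muscle than in heart (14.5% of probes) and 7 lower (14.9%).

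**Figure D2:**
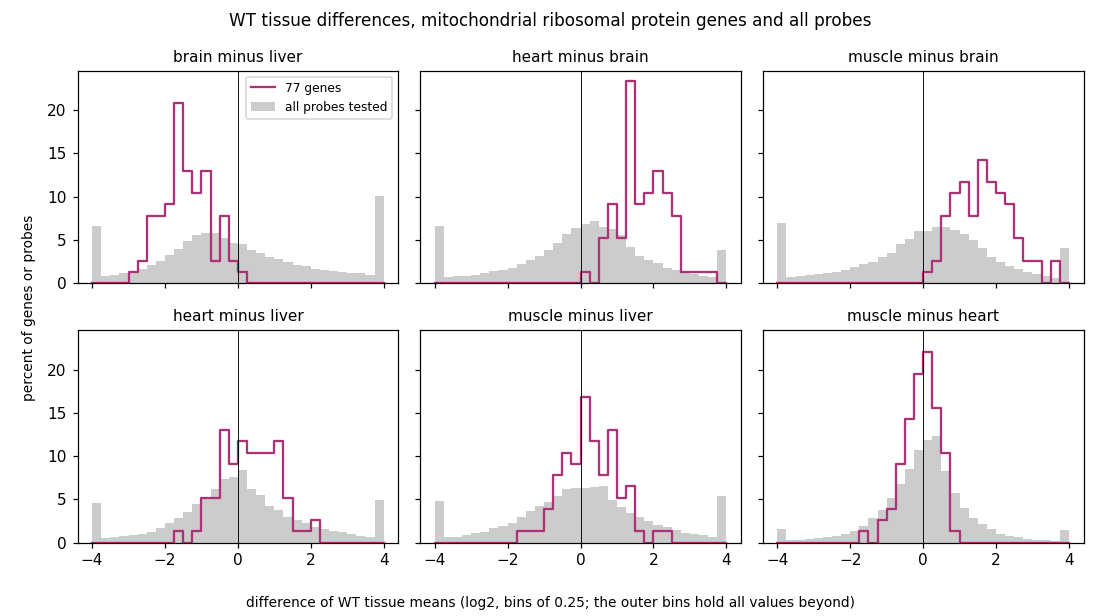
Differences between WT tissue means (x axis, log2) for the 77 genes (line) and for all 40758 probes tested (grey bars), as a percent of each (y axis), in 6 comparisons. The outer bins hold all values beyond them. Of the 77 genes 76 lie to the left of 0 for brain minus liver and all to the right for heart and muscle minus brain, and around 0 for muscle minus heart, where their median is -0.03.

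How large the brain difference was depended on how arrays were scaled to each other. After quantile normalization the median for brain minus liver was -0.57, with 46 genes lower and 8 higher, while heart minus brain kept a median of 1.29 (69 genes higher, 0 lower) and muscle minus brain one of 1.05 (62 higher, 1 lower). With the z-scores that the authors deposited, brain minus liver had a median of -1.07 (61 lower, 1 higher). Called or not, 1 of 77 genes had a higher WT mean in brain than in liver as reported. After quantile normalization 16 did, and with the z-scores 7, so the number of genes lowest in brain also depended on the scaling. The median of all probes for brain minus liver was -0.33, -0.18 and -0.07 under the 3 scalings, so relative to all probes the members lay at -1.13, -0.39 and -0.997 log2 units. Within slides, the brain of WT1 differed from the 3 WT livers by a median of -1.21 (75 of 76 genes negative) and the hearts of WT1 and WT2 lay above the brains of WT2 and WT3 by 1.75 (77 of 77 positive).

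In the KI mice brain again lay below the other tissues. Among KI tissues 70 of 77 genes were higher in heart than in brain (34.3% of 41233 probes; 0 were lower, against 22.2%), 72 were higher in muscle than in brain (35.0%; 0 lower, against 23.4%) and 69 were lower in brain than in liver (41.3%; 0 higher, against 29.6%). Of the 76, 73 and 68 genes called in WT, 70, 71 and 68 were called in the same direction in KI. For heart against liver, 19 genes were higher (29.5%) and 18 lower (29.6%), with a median of -0.04 where WT had 0.32, and this KI median was positive after quantile normalization (0.52), with the z-scores (0.28) and with the slide as a block (0.35). For muscle against liver 23 were higher (31.9%) and 12 lower (30.0%). Muscle against heart gave 9 higher (14.1%) and 3 lower (12.7%), with a median of 0.29; the WT median was -0.03, and the KI median was -0.01 when only KI2 represented the KI heart. Across both genotypes, all 6 brain arrays lay below all 18 other arrays for 58 of 77 genes (75.3%), against 13.3% of probes; after quantile normalization this held for 38 genes, against 10.5% of probes.

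**Figure D3:**
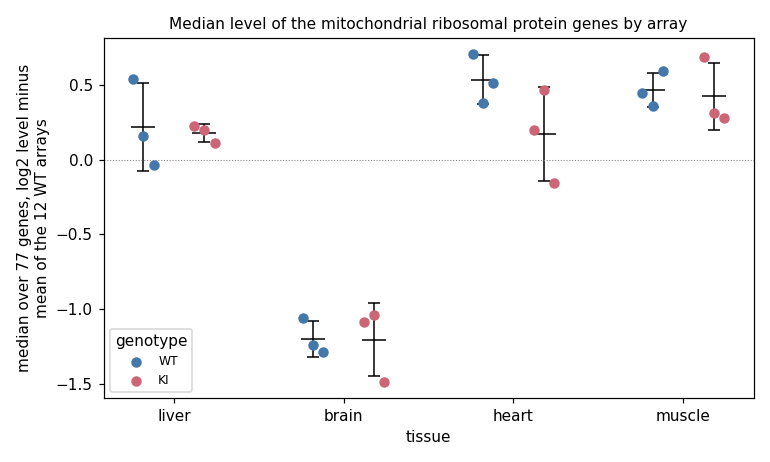
Median over the 77 genes on each array (y axis, log2 level minus the gene's mean over the 12 WT arrays) by tissue (x axis) and genotype (blue WT, red KI); each point is 1 mouse, and bars show the mean and SD of 3 mice. The 6 brain points lie between -1.49 and -1.04 and the other 18 between -0.15 and 0.71, with the heart of KI3 lowest among these.

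The genes that fell farthest in brain were Mrps28, Mrpl42 and Mrpl1. Mrps28, a small-subunit protein (chromosome 3, 8802146 to 8923857), had levels of 3.1, 3.04 and 2.78 in the WT brains, 5.51, 5.22 and 4.94 in the livers, 6.12, 5.89 and 6.15 in the hearts and 6.67, 6.44 and 6.86 in the muscles. No brain overlapped any other tissue. Its brain minus the mean of the other 3 tissues was -3.01 ± 0.18 (SE; limma, adjusted p = 6e-08), the most negative of the 77. Mrpl42 is a large-subunit protein found in mitochondria but not in bacteria (chromosome 10, 95480805 to 95501949). Its WT levels were 1.84, 1.14 and 1.38 in brain, 3.32, 2.86 and 3.01 in liver, 5.70, 5.28 and 4.49 in heart and 4.88, 4.89 and 5.42 in muscle. Liver thus lay between brain and the striated muscles, and heart exceeded brain 13.0-fold (3.70 ± 0.33, adjusted p = 2.24e-06), the widest spread of tissue means among the 77. Mrpl1, a protein of the mobile stalk beside the exit site of the large subunit (chromosome 5, 96209498 to 96266727), had levels of -0.96, -1.12 and -1.35 in the WT brains. Its WT livers, hearts and muscles ran from 1.31 to 2.23 without separating from each other, and brain differed from them by -2.87 ± 0.20 (adjusted p = 2.24e-07).

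**Figure D4:**
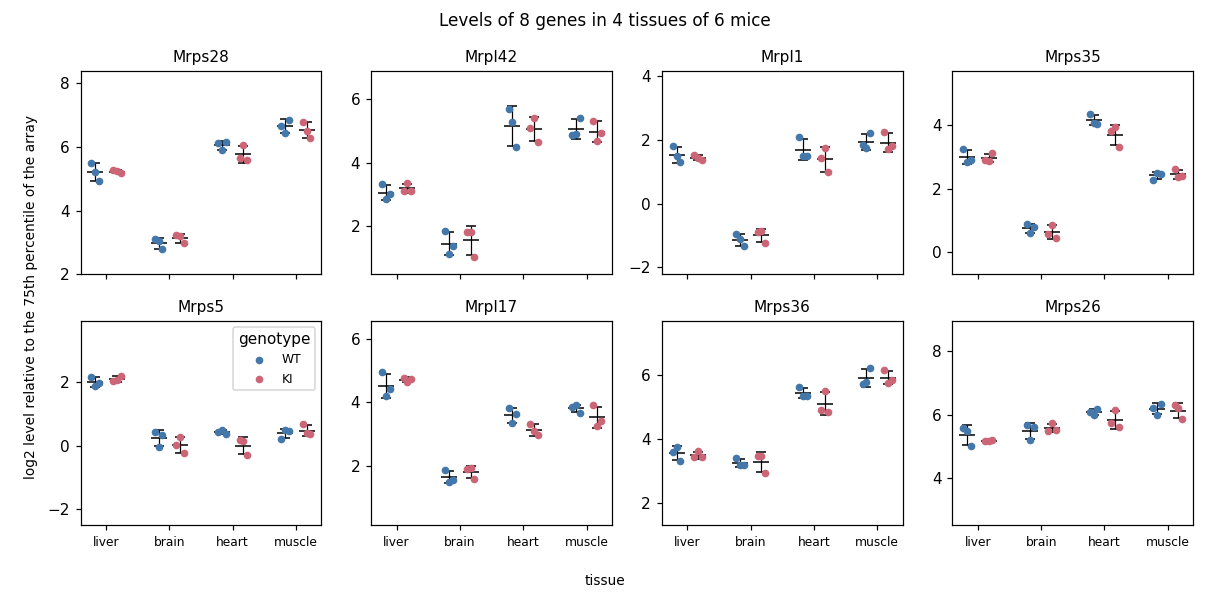
Levels of 8 genes (y axis, log2 with the array 75th percentile at 0, each panel spanning the same range) by tissue (x axis) in WT (blue) and KI (red); points are mice, bars the mean and SD of 3. Mrps28, Mrpl42 and Mrpl1 are lowest in brain, Mrps35 is highest in heart, Mrps5 and Mrpl17 are highest in liver, Mrps36 is high in heart and muscle, and Mrps26 differs least.

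Of the 21 genes highest in liver, Mrps5 and Mrpl17 had the largest differences. Mrps5, a small-subunit protein with a bacterial counterpart (chromosome 2, 127587426 to 127603986), had WT levels of 2.15, 1.86 and 1.98 in liver, 0.44, -0.05 and 0.33 in brain, 0.42, 0.49 and 0.37 in heart and 0.21, 0.48 and 0.46 in muscle. It was the 1 gene called for neither heart nor muscle against brain (adjusted p = 0.455 and 0.563), and its 3 lower tissues overlapped. Liver minus the mean of the others was 1.65 ± 0.16 (adjusted p = 4.59e-06). Mrpl17 is a large-subunit protein with a bacterial counterpart (chromosome 7, 105803782 to 105811087). It read 4.94, 4.2 and 4.43 in WT liver, 3.81, 3.34 and 3.63 in heart, 3.85, 3.91 and 3.68 in muscle and 1.89, 1.52 and 1.58 in brain, so liver was highest and brain lowest with no overlap between them and the other tissues. Its liver difference was 1.503 ± 0.20 (adjusted p = 4.24e-05). Mrps2 and Mrps10, both small-subunit proteins with bacterial counterparts, followed with 1.30 ± 0.20 (adjusted p = 0.000183) and 1.19 ± 0.21 (adjusted p = 0.000501), and neither was called with the slide as a block (0.66 and 0.65). At the other end of the liver comparison stood Mrps36 with -1.32 ± 0.18 (adjusted p = 5.35e-05), Mrps23 with -0.98 ± 0.19 (adjusted p = 0.000733) and Mrpl42 with -0.83 ± 0.27 (adjusted p = 0.0181).

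Heart and muscle, alike in the median, differed for single genes. Mrps35, a small-subunit protein without a bacterial counterpart (chromosome 6, 147042728 to 147070906), had levels of 4.33, 4.07 and 4.04 in WT heart, 2.28, 2.50 and 2.48 in muscle, 3.23, 2.83 and 2.90 in liver and 0.88, 0.60 and 0.80 in brain. The 4 tissues did not overlap. Muscle minus heart was -1.73 ± 0.20 (adjusted p = 6.82e-05), and the same difference in the KI mice was -1.23 ± 0.21 (adjusted p = 0.00163). Mrps9, Mrpl41, Mrpl28, Mrpl39, Mrps6 and Mrps23 were the other genes lower in WT muscle than in heart, with differences from -1.21 to -0.67, and Mrps10 was the 1 gene higher (0.77 ± 0.26, adjusted p = 0.0465). A second probe of Mrpl41 gave 0.16 (limma, adjusted p = 0.637), the opposite sign, so its direction is not settled by the array. Second probes gave -0.37 for Mrpl39 (adjusted p = 0.291) and -0.73 for Mrps23 (adjusted p = 0.0412). In KI only Mrps35, Mrpl39 and Mrps6 of these 7 lower genes were called again, and Mrps10 was again higher. Against the mean of the other tissues, heart was highest for Mrps35 (2.09 ± 0.16, adjusted p = 1.92e-06), Mrpl42 (1.96 ± 0.27, adjusted p = 0.000129), Mrps23 (1.80 ± 0.19, adjusted p = 1.62e-05) and Mrps9 (1.64 ± 0.17, adjusted p = 1.8e-05). Its lowest were Mrps5 (-0.45 ± 0.16, adjusted p = 0.0464, a call lost after quantile normalization and with the slide as a block), Mrps10 (-0.37 ± 0.21, adjusted p = 0.192) and Mrps22 (-0.07 ± 0.21, adjusted p = 0.813).

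Muscle had its largest positive differences from the other tissues for Mrps28 (1.90 ± 0.18, adjusted p = 6.22e-06), Mrpl42 (1.84 ± 0.27, adjusted p = 0.000169), Mrps36 (1.83 ± 0.18, adjusted p = 7.8e-06) and Mrpl51 (1.71 ± 0.18, adjusted p = 1.89e-05). Its largest negative ones were Mrps5 (-0.50 ± 0.16, adjusted p = 0.0248), Mrpl9 (-0.49 ± 0.21, adjusted p = 0.0782) and Mrpl41 (-0.27 ± 0.17, adjusted p = 0.222). Mrps36, the gene named for the ribosome but described in the 2-oxoglutarate dehydrogenase complex, was among the 9 genes not called between brain and liver. Its WT levels were 3.40, 3.19 and 3.18 in brain and 3.59, 3.75 and 3.31 in liver, which overlapped (-0.30, adjusted p = 0.245), against 5.62, 5.34 and 5.34 in heart and 5.71, 5.80 and 6.23 in muscle. A second probe of Mrps36 gave 0.78 for brain minus liver (adjusted p = 0.00634), the opposite sign, so this comparison is not settled by the array.

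The 4 genes with the smallest range of WT tissue means were Mrps26 (0.82), Mrpl20 (0.98), Mrps11 (1.00) and Mrpl27 (1.08); the range reached 3.70 for Mrpl42. Mrps26, a small-subunit protein without a bacterial counterpart, read 5.66, 5.21 and 5.63 in WT brain, 5.58, 5.49 and 5.02 in liver, 6.09, 5.98 and 6.18 in heart and 6.22, 5.99 and 6.33 in muscle. Brain and liver overlapped, and it was the 1 gene whose lowest WT mean was in liver. With this probe Mrps26 remained higher in heart than in brain by 0.58 ± 0.22 (limma, adjusted p = 0.0441). A second probe of Mrps26 gave 0.50 for heart minus brain (adjusted p = 0.0548) and 0.65 for brain minus liver (adjusted p = 0.0142).

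The 3 homologs of the bacterial S18 protein are thought to occupy different ribosomal sites. All were lowest in WT brain, with heart minus brain at 1.68 for Mrps18a, 1.47 for Mrps18b and 0.99 for Mrps18c (adjusted p = 0.000132, 0.000144 and 0.00215). They parted in liver: Mrps18a was higher in heart and muscle than in liver (0.81 and 0.89, adjusted p = 0.0166 and 0.00977), while Mrps18c differed by 0.01 and 0.13 and Mrps18b by -0.56 and 0.03, none of which passed the test. A second probe of Mrps18b gave -1.26 for heart minus liver (limma, adjusted p = 0.0048), so that call depended on the probe.

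Both subunits and both evolutionary classes shared the brain pattern. Heart minus brain had a median of 1.77 over 48 Mrpl genes, all called higher, and of 1.49 over 29 Mrps genes, of which 28 were called higher. The 29 large-subunit proteins with a bacterial counterpart had a median of 1.89 and the 21 without one 1.56; in the small subunit the medians were 1.47 for 16 conserved proteins and 1.42 for 10 without a counterpart. For brain minus liver the 4 medians were -1.51, -1.50, -1.29 and -1.30 in the same order. These groups overlapped in range and no difference between them was tested.

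The median of heart minus brain was 1.47 over 25 members with the ETS motif and 1.61 over 43 without it, 1.87 over 16 with the NRF1 motif and 1.48 over 52 without, and 1.44 over 8 with the YY1 motif and 1.57 over 60 without. For muscle minus brain the medians were 1.79 with the NRF1 motif and 1.55 without, and 1.83 and 1.55 for the YY1 motif. With and without the ETS motif they were 1.63 and 1.61. For brain minus liver the medians were -1.57 with the NRF1 motif and -1.32 without, and -1.43 and -1.39 for the YY1 motif. Those for the ETS motif were -1.31 and -1.44. These are descriptions, with no test.

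For 22 genes a second probe could be set beside the first. It gave the same sign for heart minus brain in 19 of 22 genes, for brain minus liver in 16 of 22 and for muscle minus heart in 16 of 22. For Mrpl41, Mrps14 and Mrps25 the probes went opposite ways in heart minus brain, at 1.34 against -1.08, 1.46 against -0.996 and 1.37 against -1.70, so the direction of these 3 genes is not settled by the array. For brain minus liver the signs differed for these 3 genes and for Mrpl39, Mrps33 and Mrps36.

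Other genes of mitochondrial protein synthesis were examined as lists, whose counts for WT heart minus brain stand against 32.4% of all probes called higher and 23.6% lower. The 5 mitochondrial ribosome proteins with other names (Dap3, Ptcd3, Chchd1, Aurkaip1 and Gadd45gip1) were all called higher in WT heart than in brain, by 0.99 for Aurkaip1 to 2.40 for Ptcd3. Of 11 translation factors tested, 9 were higher and 0 lower (median 1.79), led by the elongation factors Gfm1 (3.02, adjusted p = 6.89e-07) and Tufm (2.82, adjusted p = 1.57e-06), by Gfm2 (2.58), a ribosome recycling factor, and by Tsfm (2.25), the exchange factor of Tufm. Of 26 assembly factors 20 were higher and 1 lower (median 1.13), led by the rRNA methyltransferase Nsun4 (2.42) and by Mtg2, Malsu1 and Rpusd4 (2.23, 2.13 and 1.80). Of 17 mitochondrial aminoacyl-tRNA synthetases, which charge the tRNAs, 14 were higher and 0 lower (median 0.93), led by Cars2, Ears2, Fars2 and Mars2 (2.80, 2.73, 2.57 and 2.54). Of 12 genes of mitochondrial DNA transcription and replication and of RNA stability, 10 were higher and 0 lower (median 1.54). Among them were Tefm, Tfb2m, Ssbp1 and Twnk (2.56, 2.49, 2.02 and 2.02). Of 10 regulators of biogenesis 6 were higher and 0 lower (median 1.10), among them Ppargc1b, Gabpa, Esrra and Ppargc1a (2.73, 2.15, 2.02 and 1.45). For WT brain minus liver 2 of the 10 regulators were higher and 5 lower (median -0.67), against 28.6% and 39.0% of probes. Esrrg was higher by 3.23 and Ppargc1a, a coactivator of mitochondrial biogenesis, by 1.88 (adjusted p = 2.71e-05 and 1.88e-05), and Gabpa, on the other side, differed by -2.70 (adjusted p = 2.55e-05).

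As other large complexes of the mitochondrion and of translation, 80 subunits of oxidative phosphorylation, encoded in the nucleus, and 75 cytosolic ribosomal proteins were picked by symbol after values had been seen. For heart minus brain 78 of the 80 subunits were higher and 0 lower (median 2.32), and 74 of the 75 cytosolic proteins were higher and 1 lower (median 1.05). For heart minus liver, 71 of 80 subunits were higher and 1 lower (median 1.13), 29 of 77 mitochondrial ribosomal protein genes were higher and 7 lower (median 0.32), and 0 of 75 cytosolic ones were higher and 4 lower (median -0.05), beside 24.6% of probes higher and 26.4% lower. The direction of brain minus liver for both comparison lists rested on the scaling: the median was -1.13 for the subunits and -1.10 for the cytosolic proteins as reported, and 0.12 and 0.15 after quantile normalization, where the mitochondrial ribosomal protein median stayed negative. The cytosolic proteins likewise lost their heart minus brain difference after quantile normalization (median 0.04, 14 higher and 4 lower).

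Outside the members, the 3 genes whose 12 WT levels ran closest to the array medians were Ndufb6, a subunit of respiratory complex I, Commd1 and Ogfod3 (Pearson r = 0.994, 0.993 and 0.993 among 17895 genes). The 12 arrays fall into 4 tissues, so these values mostly describe the order of the tissues and carry no test. Over the 12 KI arrays the correlations were 0.991 for Ndufb6 and 0.990 for Commd1 but 0.329 for Ogfod3.

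Between genotypes, no mitochondrial ribosomal protein gene was called in any tissue (limma, 0 of 77 in liver, brain, heart and muscle at an adjusted p under 0.05, as 0% of all probes were). At an unadjusted p under 0.05, 0 of 77 genes were higher or lower in liver (1.25% and 0.883% of 35240 probes), brain (1.11% and 1.51% of 37836) and muscle (1.44% and 1.04% of 32382). The median differences were -0.01, 0.04 and -0.05 log2 units, near those of all probes (-0.01, -0.05 and -0.07). None of the members with the smallest p passed the adjusted test (limma, adjusted p = 1, 1 and 0.939). In liver Mrps27, Mrps2 and Mrpl17 differed by 0.27, 0.23 and 0.19 and Mrpl47, Mrps11 and Mrpl51 by -0.28, -0.22 and -0.26. In brain Mrpl52, Mrps6 and Mrps28 by 0.22, 0.17 and 0.16 and Mrpl9, Mrps5 and Mrps27 by -0.33, -0.21 and -0.19. In muscle Mrpl47, Mrpl3 and Mrpl41 by 0.27, 0.24 and 0.19 and Mrps12, Mrps10 and Mrpl54 by -0.34, -0.30 and -0.33. With 3 mice in each group the median SE of a difference was 0.21 to 0.26 in the 4 tissues. Changes near this size were not detectable, and larger ones could also be missed. In heart a difference of -0.82 (Mrps18a) did not pass (limma, adjusted p = 0.646).

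In heart the differences of the members had 1 sign. All 77 had a lower mean in KI than in WT heart, against 52.2% of probes, with a median of -0.34 (1.26-fold) against -0.02 for all probes. None passed the adjusted test (lowest adjusted p = 0.646); 6 were lower at an unadjusted p under 0.05 (2.42% of 34848 probes) and 0 higher (5.09%). The 6 became 1 without WT1, WT3 or KI3, 9 without WT2 and 15 in 1 fit of all 24 arrays. For 13 of 77 genes (16.9%) all 3 KI hearts lay below all 3 WT hearts, against 8.69% of probes. By mouse, the median of the 77 genes relative to the WT heart mean was 0.17, -0.17 and 0.04 for WT1, WT2 and WT3 and -0.35, -0.03 and -0.68 for KI1, KI2 and KI3. KI2 thus lay among the WT hearts, and KI1 and KI3 below them.

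**Figure D5:**
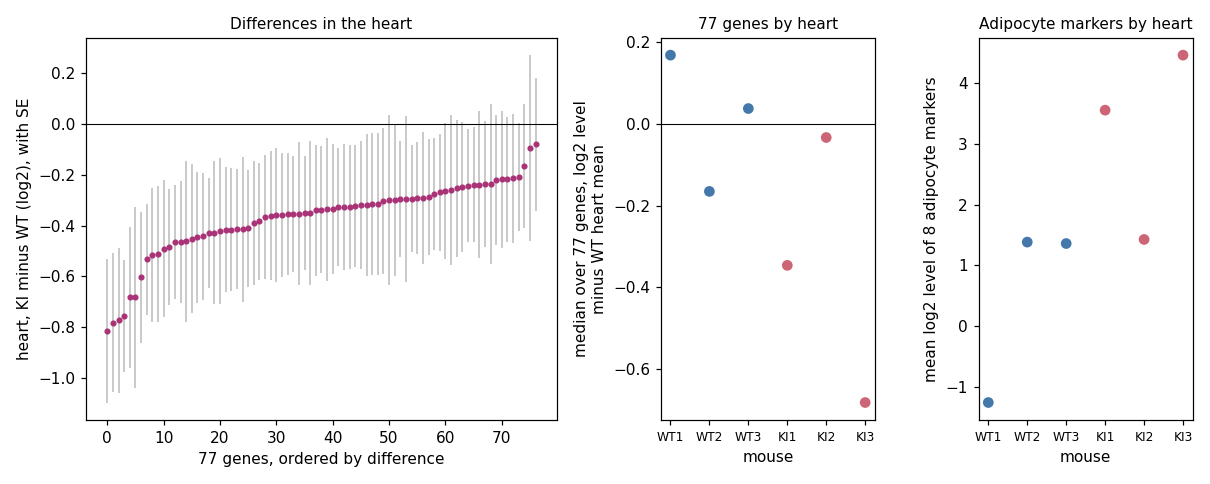
Left, heart difference between KI and WT (y axis, log2, points with SE) for the 77 genes in order of the difference; middle, median over the 77 genes in each heart (y axis, log2 level minus the WT heart mean); right, mean log2 level of 8 adipocyte markers in each heart (blue WT, red KI). All 77 points on the left lie below 0, and the hearts of KI1 and KI3 are lowest in the middle panel (-0.35 and -0.68) and highest in the right one (3.6 and 4.5).

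The hearts of KI1 and KI3 were also those in which all 8 adipocyte markers were above background. The mean level of the 8 markers was -1.3, 1.4 and 1.4 in WT1, WT2 and WT3 and 3.6, 1.4 and 4.5 in KI1, KI2 and KI3, with 7 of 8 above background in the other 4 hearts. Pnpla2 (6.41 in KI1, 6.43 in KI3) lay within the range of the other hearts, as did Fabp4 in KI1 (7.74) but not in KI3 (8.17). In muscle the marker means were 5.3, 2.4 and 3.9 in WT1, WT2 and WT3 and 4.0, 6.1 and 4.1 in KI1, KI2 and KI3. The medians of the 77 genes there were -0.02, -0.09 and 0.11 in WT and 0.21, -0.20 and -0.19 in KI. The mean of the 8 brain markers was -0.0 and 0.8 in KI1 and KI3 against -1.7 to -0.9 in the other 4 hearts, and 62.6% to 65.6% of probes were above background in KI hearts against 59.1% to 60.8% in WT hearts. Leaving out both hearts leaves KI2 alone, at a median of -0.03 with 44 of 77 genes negative; the hearts left out were also the lowest for the members, so this value describes 1 mouse and is no test. In bulk tissue, fewer cells of a type and less RNA per cell cannot be told apart, and the part of other cells in the heart values was not tested. Within slides, the hearts of KI1 and KI2 differed from those of WT1 and WT2 by a median of -0.20 (76 of 77 negative) and the heart of KI3 from that of WT3 by -0.66 (75 of 77 negative).

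Mrpl9, a large-subunit protein with a bacterial counterpart, had the smallest p in heart. Its levels were 2.44, 2.32 and 2.77 in the WT hearts and 1.90, 1.80 and 1.56 in the KI hearts, without overlap, and the difference was -0.75 ± 0.22 (limma, adjusted p = 0.646). The heart of KI2 was as low as that of KI1. Mrps18a read 5.24, 4.95 and 5.32 in WT and 4.61, 4.62 and 3.83 in KI (-0.82 ± 0.28, adjusted p = 0.646), and Mrps27, a pentatricopeptide repeat protein of the small subunit, 1.66, 1.26 and 1.66 in WT and 1.05, 0.91 and 0.28 in KI (-0.78 ± 0.28, adjusted p = 0.646). In both, the heart of KI3 was lowest. The other 3 genes with an unadjusted p under 0.05 were Mrpl54, Mrpl38 and Mrps12, named here because their number is small, at -0.77, -0.68 and -0.53. At the other end Mrps6 and Mrpl42 differed by -0.08 and -0.10.

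The other lists had negative medians in KI heart too, with 0 genes called. The medians were -0.35 for the 5 other ribosome proteins, -0.26 for the translation factors, -0.39 for the assembly factors and -0.34 for the synthetases. They were -0.28 for transcription, replication and RNA stability and -0.15 for the regulators. The oxidative phosphorylation subunits had a median of -0.25, with 79 of 80 negative, and the cytosolic ribosomal proteins one of -0.19, with 73 of 75 negative; after quantile normalization these were -0.07 and 0.00, while the mitochondrial ribosomal protein median was -0.15 with 73 of 77 negative.

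Whether a genotype difference varied between tissues was tested with the interaction in 1 fit of all 24 arrays. It called 0 of 77 genes, as 0% of 43675 probes, and 1 gene at an unadjusted p under 0.05 (2.94% of probes), Mrps27 (limma, adjusted p = 1). KI3 lay below the WT mean in each tissue, with medians over the 77 genes of -0.11 in liver, -0.22 in brain, -0.68 in heart and -0.19 in muscle. The WT mice ranged from -0.24 to 0.29 in liver, from -0.09 to 0.18 in brain, from -0.17 to 0.17 in heart and from -0.09 to 0.11 in muscle, so KI3 lay below the WT range in brain, heart and muscle and within it in liver. KI1 lay below it in heart (-0.35) and KI2 in muscle (-0.20), and KI2 in brain (0.22) and KI1 in muscle (0.21) lay above it. Over all probes tested in a tissue, KI3 had medians of -0.05 in liver, -0.12 in brain, -0.07 in heart and -0.13 in muscle. The median of KI2 in muscle was -0.09 over all probes. The brain and muscle values of KI3 and the muscle value of KI2 were thus partly those of all probes.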

How the data were processed

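RNA from 4 tissues of 6 mice was hybridised to 24 one-colour Agilent arrays (Cy3). Per the file headers, the authors' scanner files were made with Agilent Feature Extraction 12.0.3.1, and the deposited intensity values are processed signals after background subtraction. The series table deposited by the authors holds a score per probe, the z-score of the log10 signal within each array (all 24 arrays matched within 0.005). No column of another sample was present.

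Control and outlier-flagged spots were left out, spots of a probe were averaged on the log2 scale, and the 75th percentile of 55681 non-control probes was subtracted (Python 3.11.15, pandas 2.3.3). Of these probes 28331 were named through RefSeq accessions. Probes well above background on at least 3 arrays of a comparison were fitted with limma 3.58.1 in R 4.3.3, with Benjamini-Hochberg adjustment over all of them and a threshold of 0.05: 12 arrays of a genotype for tissues, 6 arrays of a tissue for genotype and all 24 for the interaction. The pipeline was tested on simulated data.

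Genes named in the text were the 4 highest and 3 lowest members of each WT tissue against the other 3, the 4 with the smallest range, the 3 members higher and 3 lower between genotypes with the smallest p in each tissue, the Mrps18 genes, Mrps36, the leading genes of other lists, Terf2ip, and the 3 genes most like the member median. The members and lists were chosen with earlier results of these data known, and the oxidative phosphorylation and cytosolic ribosomal lists after values had been seen. Each mouse gave all 4 tissues, so mouse numbers pair the tissues; deviations from the group means correlated from -0.21 to 0.26 over 36 same-mouse pairs (median 0.04). Alternatives were the scaling, background correction, filter, probe, variance model, mouse, slide and age blocks, and leaving out mice. The precision is limited by the number of arrays.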

Additional observations from a re-analysis of the deposited data

How the results depend on the processing

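The median difference between brain and each other tissue kept its sign under every scaling, filter, block and left-out mouse run. After quantile normalization the WT medians were -0.57 for brain minus liver, 0.68 for heart minus liver and 0.46 for muscle minus liver. They were 1.29 for heart minus brain, 1.05 for muscle minus brain and -0.165 for muscle minus heart. Between WT muscle and heart 18 genes were then lower in muscle (16.6% of probes) and 0 higher (14.7%). The KI medians were -0.49, 0.52 and 0.54 against liver, 1.16 for muscle minus brain and 0.052 for muscle minus heart. At an unadjusted p under 0.05, 3 genes were lower in KI heart. With the z-scores the medians against liver were -1.07, 0.56 and 0.52 in WT and -0.80, 0.28 and 0.56 in KI for brain, heart and muscle, and 13 genes were called between WT muscle and heart. That count was also 13 with probes above background on all arrays and 14 with trended robust variances, and without a filter 7 genes were called between KI muscle and heart. With the slide as a block the WT medians against liver were -1.21 for brain, 0.62 for heart (16 called) and 0.46 for muscle (6 called). In KI they were 0.35 for heart (8 called) and 0.86 for muscle (8 called), with 2.13 for muscle minus brain and 0.51 for muscle minus heart (5 called). In 1 fit of all 24 arrays 15 genes were lower in KI heart at an unadjusted p under 0.05, and 15 with the mouse as a random replicate block.

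With the mouse as a fixed replicate block, 68 genes were called for WT brain minus liver, 74 for heart minus brain and 71 for muscle minus brain, and no other call counted here changed by over 1.5 times; Mrps5 was no longer called in heart.

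Without the hearts of KI1 and KI3, an alternative chosen after seeing the data, KI heart minus liver had a median of 0.25, heart minus brain 1.46 and muscle minus heart -0.01 (1 called), so that the first, at -0.04 as reported, and the last, at 0.29, changed sign. KI minus WT heart was then -0.033, with 44 genes negative and 0 lower at an unadjusted p under 0.05; a single KI heart is left here and is assumed to vary like the others. Leaving out 1 mouse at a time, WT calls ranged from 17 (without WT3) to 33 for heart minus liver, 18 (without WT3) to 30 for muscle minus liver, with a median from 0.0037 (without WT3) to 0.47, and 3 (without WT2) to 9 for muscle minus heart. KI calls ranged from 18 (without KI1) to 32 for heart minus liver and for muscle minus liver, 45 (without KI2) to 64 for heart minus brain and 0 (without KI1 or KI2) to 5 for muscle minus heart. Genes lower in KI heart at an unadjusted p under 0.05 ranged from 1 (without WT1, WT3 or KI3) to 9, and Mrps22 in WT heart from -0.20 to 0.033 (without WT3). The cause of these changes was not tested. With 3 mice in each group, differences near the SE of 0.21 to 0.26 were not detectable, and larger ones could also be missed.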
